A study of Komagataella phaffii with 15 samples.

Results

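The genes described here are those of the yeast Komagataella phaffii CBS7435 whose locus tags stand first or last in the numbering of a chromosome. They were chosen by tag number alone: tags 0001 to 0020 of chromosomes 1, 2, 3 and 4, tags 1570 to 1600 of chromosome 1, 1210 to 1240 of chromosome 3 and 1000 to 1025 of chromosome 4, as far as each tag was present, without 7 tags set aside as FLO family genes. This gave 134 of the 5341 genes measured, of which 75 lay at the 4 low-numbered ends and 59 at 3 high-numbered ends, with 17 to 24 at each end. RNA-Seq was done on a wild-type strain (WT) and a strain with a disrupted FLO8 gene (flo8Δ) grown in glucose-limited chemostats, in which the feed sets the growth rate. The flo8Δ strain was sampled at S1 (growth rate 0.1 per h) and S3 (0.05 per h), and WT at S1 (0.1 per h), S3 (0.05 per h) and S5 (switched back to 0.1 per h), each after 5 residence times and each with 3 biological replicates, which makes 15 libraries. Both strains share the CBS7435 background. In flo8Δ a piece of the promoter and the start of the FLO8 reading frame had been removed and the selection marker taken out again, and the sources used here name no second, independently made deletion line. The same chemostat passed from S1 to S3 to S5, so samples of different stages can come from 1 culture.

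Chromosome ends of yeasts carry telomeres, and the genes next to them tend to belong to families with several similar copies, to vary between strains and, in Saccharomyces cerevisiae, to be held at low or switching expression by silent chromatin. FLO genes, which encode the cell wall adhesins behind flocculation and filamentous growth, are a known family of such regions, and Flo8 is a transcription regulator of FLO genes. For K. phaffii, however, the study found several FLO genes clearly expressed in standard media. It took this expression not to depend on a place near telomeres, unlike in S. cerevisiae. Slow growth in glucose-limited chemostats is the condition in which this yeast takes on an elongated, pseudohyphal shape. The files give these genes only as locus tags and the annotation table at hand holds no tag of this strain, so that no gene name, function or genome position is given for any of them. The place of a gene is therefore its place in the tag order. The consecutive numbering, in which some tags are missing, ended at 1587 on chromosome 1, 1237 on chromosome 3 and 1020 on chromosome 4. PP7435_Chr1-1598 has a higher tag that does not follow on from it, so its number was not taken to give its place. This gene was still counted with the high-numbered end of chromosome 1. The high-numbered end of chromosome 2 was not among the tags chosen.

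The libraries held 4163342 to 10843287 reads assigned to transcripts, with a median of 9310698, and the shallow ones were WT S1 replicate 3 and flo8Δ S1 replicate 2. Replicates differed most, by chi-square per gene on the reads, for WT S5 replicate 3 and for the pair WT S1 replicates 2 and 3. The values were 60.9 and 48.8 for S5 replicate 3 against replicates 2 and 1, and 50.3 for the S1 pair. This measure grows with depth and the depths differ, so these libraries are not ranked. FLO8 itself (PP7435_Chr4-0252) was measured at 24.1 to 34.8 TPM (transcript level, reads per effective length scaled to the same total in each library) in the flo8Δ libraries and 25.1 to 39.2 TPM in the WT libraries. The disruption leaves most of the reading frame in place, so this level does not check the strain labels, which were taken as given.

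Genes with chromosome-end tags included a larger share of low-level genes than the rest of the genome, and 3 of them lay under 1 TPM. Averaged over the 5 groups, their median level was 43.3 TPM, against 58.2 TPM in the 5200 other genes. The other genes are all those neither chosen nor set aside as FLO family tags, so the high-numbered end of chromosome 2 is not left out of them. The ends differed in level: the median was 60.3 TPM over the 75 genes at low-numbered ends and 23.9 TPM over the 59 at high-numbered ends. Under 10 TPM there were 20 of the 134 (14.9%), against 2.10% of the other genes, whereas over 1000 TPM the shares were 3.73% and 3.38%. These levels are a description, with no test across genes. The 161 genes with the next tags inward had a median of 59.4 TPM and only 1.24% of them lay under 10 TPM. By group, the median of the 134 genes was 36.5 ± 1.37 TPM in flo8Δ S1 and 42.2 ± 1.75 TPM in flo8Δ S3, and 43.6 ± 2.71, 46.8 ± 2.67 and 38.1 ± 4.80 TPM in WT S1, S3 and S5 (mean ± SD of the 3 library medians), with 54.6, 59.9, 59.0, 58.7 and 54.4 TPM for the other genes in the same groups.

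At the low-numbered ends the low levels were found at the very end of the tag order, mainly on chromosomes 1 and 2. The ends of chromosomes 1, 2, 3 and 4 held 3, 3, 1 and 0 genes under 10 TPM. On chromosome 4 the lowest gene had 26.7 TPM. Over the 4 ends, 7 of the 18 genes with tags 1 to 5 lay under 10 TPM and the median of the 18 was 26.0 TPM. None of the 57 genes with tags 6 to 20 and none of the 76 with tags 21 to 40 did, and the medians of the 5-tag steps from 6 to 20 were 62.4, 76.0 and 69.1 TPM. At the high-numbered ends the low stretch reached farther in. There 5 of 12, 3 of 13, 2 of 14 and 2 of 13 genes lay under 10 TPM in the successive 5-tag steps from the end, with medians of 26.3, 17.2, 25.7 and 28.0 TPM, against 2 of 57 and a median of 50.0 TPM at places 21 to 40. The chromosomes differed too: the median was 124 TPM at the low-numbered end of chromosome 3 and 72.8 TPM at that of chromosome 4, 43.3 and 30.9 TPM at those of chromosomes 2 and 1, and 29.1, 18.3 and 26.0 TPM at the high-numbered ends of chromosomes 1, 3 and 4.

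**Figure D1:**
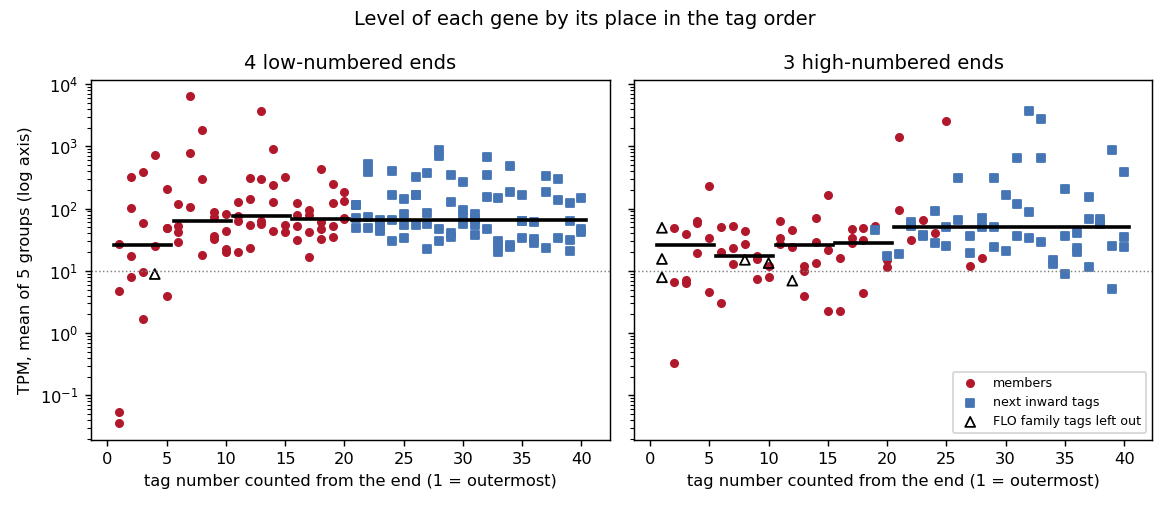
Level of each gene (TPM, mean of the 5 group means, log axis) against its place in the tag order counted from the chromosome end, with the 4 low-numbered ends on the left and the 3 high-numbered ends on the right. Red points are the chromosome-end genes, blue squares the next tags inward, triangles the FLO family tags, black bars the medians of each step and the dotted line 10 TPM. The points under the dotted line crowd at places 1 to 5 on the left and spread over places 1 to 20 on the right. PP7435_Chr1-1598 is not drawn.

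The lowest genes were at or near the detection limit. PP7435_Chr1-0001, the first tag of chromosome 1, had 0 reads in 7 of the 15 libraries and never more than 1, and PP7435_Chr2-0001, the first tag of chromosome 2, averaged 0.0545 TPM. No gene of the list was at 0 reads in every library. PP7435_Chr1-1586, the neighbour of FLO100 (PP7435_Chr1-1587), had 0 reads in all 6 flo8Δ libraries and in all 3 WT S1 libraries, then 0, 0.423 and 0.593 TPM in WT S3 and 0.673, 0.268 and 2.93 TPM in WT S5. FLO100 had 0 TPM in all 3 flo8Δ S3 libraries, 0.0547, 6.12 and 9.85 TPM in WT S3 and 5.00, 1.90 and 94.1 TPM in WT S5. Both genes were thus highest in WT S5 replicate 3, a library that differed much from its own replicates. PP7435_Chr1-0001, PP7435_Chr2-0001 and PP7435_Chr1-1586 were below the count filter and not tested in any comparison, nor was PP7435_Chr1-1598 (4 to 20 reads per library) between the strains at S1.

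The ends also held 5 genes over 1000 TPM, a share of 3.73%, near the 3.38% of the other genes. The highest of the other genes averaged 16980 TPM. PP7435_Chr1-0007 averaged 6360 TPM over the groups and PP7435_Chr4-0013 averaged 3691 TPM. PP7435_Chr3-1213 averaged 2506 TPM, PP7435_Chr3-0008 averaged 1824 TPM and PP7435_Chr4-1000 averaged 1435 TPM. The high-numbered end of chromosome 1 held no such gene, since its highest were PP7435_Chr1-1573 with 165 TPM and PP7435_Chr1-1584 with 62.1 TPM. The low-numbered end of chromosome 2 was led by PP7435_Chr2-0015 with 317 TPM and PP7435_Chr2-0012 with 307 TPM. The remaining second-ranked genes were PP7435_Chr1-0008 (294 TPM), PP7435_Chr3-0007 (787 TPM), PP7435_Chr4-0014 (917 TPM), PP7435_Chr3-1217 (95.4 TPM) and PP7435_Chr4-1016 (230.1 TPM). Of these leading genes, only PP7435_Chr1-0007 and PP7435_Chr3-1213 passed the test in any comparison below.

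The counting bears on these genes. The deposited estimates made with a strand setting hold 5.06 to 6.11% of the reads of a library, but over 50% of the reads for 15 of the 134 genes (11.2%), against 6.85% of the other genes. Reads of a gene and of a transcript overlapping it on the opposite strand cannot be told apart in the tables tested here. In addition, 15 of the 134 genes (11.2%) had stranded estimates that were not whole numbers, which arise when a read fits more than 1 transcript, against 1.33% of all genes. PP7435_Chr3-1234, PP7435_Chr3-1235 and PP7435_Chr3-1236, PP7435_Chr4-1012 and PP7435_Chr4-1017 were among them in all 15 libraries, and PP7435_Chr4-1018 in 11. The division of reads between these genes and the transcripts that share reads with them is uncertain.

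A gene was called when its adjusted p (limma, Benjamini-Hochberg over all genes tested) was under 0.05 and its log2 fold change above 1 or below -1, on the scale log2(normalised count + 1). In at least 1 of the 6 comparisons of groups, 31 of the 131 chromosome-end genes tested (23.7%) were called, against 6.09% of all genes tested and 6.21% of the genes with the next tags inward. The calls were uneven between ends. They covered 12 of 24 genes at the high-numbered end of chromosome 3 and 10 of 18 at that of chromosome 4, but 1 of 16 at that of chromosome 1. The low-numbered ends had 4 of 18 on chromosome 1, 2 of 17 on chromosome 2, and 1 of 19 on each of chromosomes 3 and 4. Members of 1 end lie side by side and are not independent of each other.

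**Figure D2:**
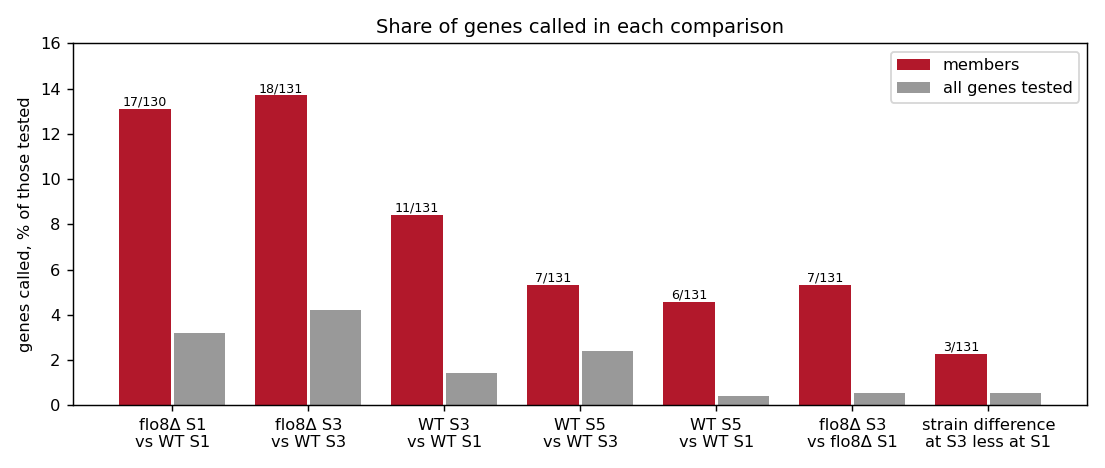
Share of genes called in each comparison (percent of those tested), for chromosome-end genes in red with their count and for all genes tested in grey. The red bar is higher in all 7 comparisons, from 2.29% against 0.546% for the change of the strain difference between S1 and S3 to 13.7% against 4.22% for flo8Δ against WT at S3.

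Loss of FLO8 was compared first. At S1, 17 of the 130 chromosome-end genes tested were called (13.1%), against 3.19% of all genes. In flo8Δ, 5 were higher than in WT, where 0.641% of all genes were, and 12 were lower, where 2.54% of all genes were. At S3, 18 of 131 were called (13.7%, against 4.22% of all genes), 4 of them higher (0.414% of all genes) and 14 lower (3.8% of all genes). The median log2 fold change of the list was 0.01 at S1 and -0.04 at S3, near 0 as for all genes, and the calls lay in both tails. The SD of the log2 fold changes was 0.72 over the list and 0.48 over all genes at S1, and 0.72 and 0.57 at S3.

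The 2 stages have no library in common, although their cultures may be shared. Of the genes lower in flo8Δ, 7 were called at both stages, 58.3% of those at S1 and 50.0% of those at S3, with 77.0% and 51.5% for all genes. Of those higher in flo8Δ, 3 were called at both, out of 5 at S1 and out of 4 at S3, with 32.4% and 50.0% for all genes. Leaving out each of the 6 libraries in turn kept 12 of the 17 calls at S1 and 17 of the 18 at S3 throughout. The calls that were lost belonged to PP7435_Chr1-0007, PP7435_Chr1-1570, PP7435_Chr3-0016, PP7435_Chr3-1232 and PP7435_Chr4-1007 at S1, and to PP7435_Chr4-1008 at S3.

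At the high-numbered ends of chromosomes 3 and 4, some of the called genes had neighbouring tags and others stood alone, and whether they cluster was not tested. PP7435_Chr3-1213 to PP7435_Chr3-1215 were all lower in flo8Δ at S1. PP7435_Chr3-1213 had 576, 573 and 574 TPM in flo8Δ S1, against 5308, 3927 and 9937 TPM in WT S1. At S3 it had 631, 512 and 643 TPM in flo8Δ and 2389, 2761 and 2990 TPM in WT. Every flo8Δ library was thus far below every WT library, and the log2 fold change was -3.27 (SE 0.26, adjusted p = 9.03e-05) at S1, where it was the greatest fall of the list, and -2.25 (SE 0.10, adjusted p = 2.63e-09) at S3. PP7435_Chr3-1215 had 35.4, 34.6 and 32.1 TPM in flo8Δ S1, against 112, 94.4 and 165 TPM in WT S1, a log2 fold change of -1.73 (SE 0.15, adjusted p = 1.34e-04), and was called at S3 too (log2 fold change -1.06). PP7435_Chr3-1214 had 21.2, 22.0 and 23.1 TPM in flo8Δ S1, against 55.9, 47.7 and 83.6 TPM in WT S1 (log2 fold change -1.36, adjusted p = 5.66e-04), and missed the fold threshold at S3.

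The parts of the reads with and without the strand setting did not move alike in these 3 genes. For PP7435_Chr3-1214 the fall at S1 lay in the stranded estimates (log2 fold change -3.19, edgeR) and not in the remaining reads (0.34), and for PP7435_Chr3-1215 it lay in the remaining reads (-2.75) and not in the stranded estimates (0.07). PP7435_Chr3-1213 fell in both, by 1.36 on the log2 scale in the estimates and by 3.39 in the remaining reads. Of 44 calls between groups for which both parts could be tested, 12 had opposite signs in the 2 parts, and they came from 7 genes.

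Another 3 neighbours on chromosome 3 went the other way at S1. PP7435_Chr3-1223 had 4.76, 5.21 and 4.76 TPM in flo8Δ S1, against 1.01, 0.913 and 2.14 TPM in WT S1. It was the greatest rise of the list at that stage, with a log2 fold change of 2.00 (SE 0.30, adjusted p = 0.00188), and at S3 the value was 1.86 (adjusted p = 2.34e-04). PP7435_Chr3-1224 had 27.5, 22.4 and 26.3 TPM in flo8Δ S1, against 8.19, 9.11 and 13.0 TPM in WT S1, and was called at both stages, with log2 fold changes of 1.43 and 1.40. PP7435_Chr3-1222 had 6.07, 3.95 and 7.01 TPM in flo8Δ S1, against 1.58, 1.86 and 1.87 TPM in WT S1 (log2 fold change 1.69, adjusted p = 0.00224), but at S3 the libraries of the strains overlapped. The 3 neighbours were low throughout, with 7 to 242 reads per library. For PP7435_Chr3-1223, 91.4% of reads were in the stranded estimates.

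**Figure D3:**
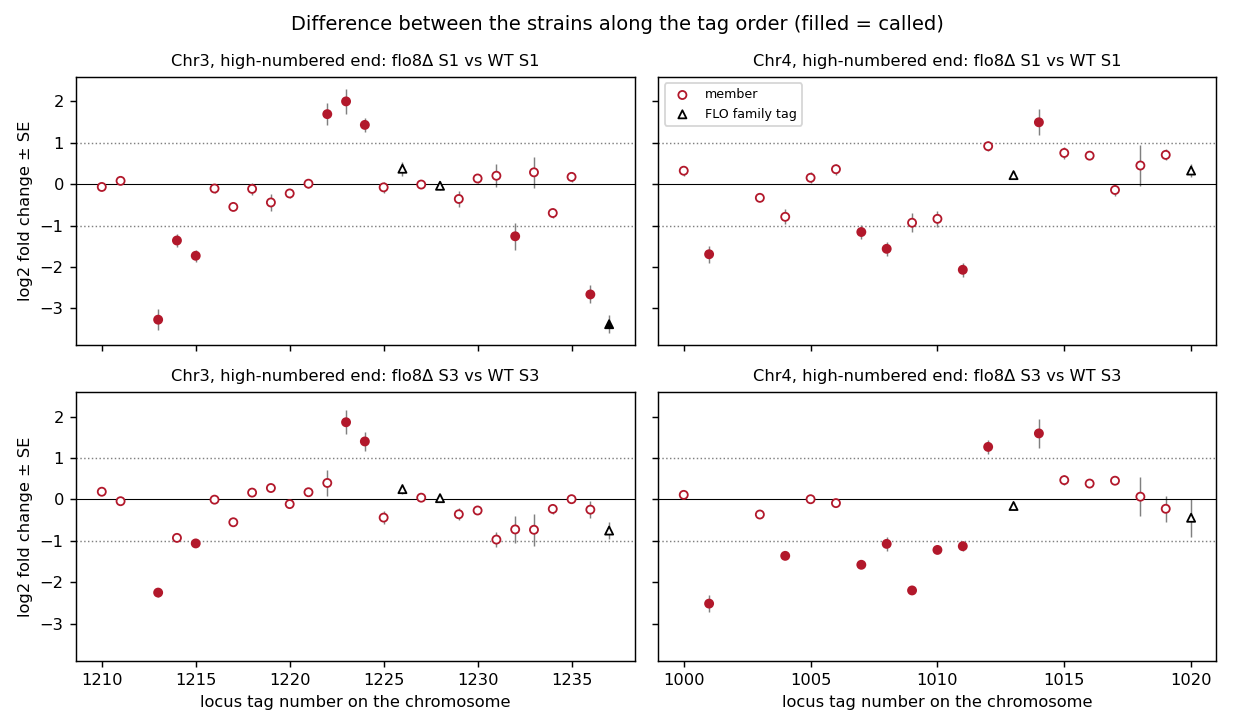
Log2 fold change of flo8Δ against WT (± SE) by locus tag number at the high-numbered ends of chromosome 3 (left) and chromosome 4 (right), at S1 (top) and S3 (bottom). Circles are chromosome-end genes, triangles FLO family tags, filled symbols were called and dotted lines mark the fold threshold of 1. On chromosome 3, tags 1213 to 1215 lie low and 1222 to 1224 high at S1, and on chromosome 4, tags 1007 to 1011 lie low at both stages while 1012 and 1014 lie high.

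On chromosome 4, PP7435_Chr4-1007 to PP7435_Chr4-1011 lay below WT. PP7435_Chr4-1011 had 4.00, 4.18 and 3.49 TPM in flo8Δ S1, against 21.6, 12.5 and 19.7 TPM in WT S1 (log2 fold change -2.07, SE 0.17, adjusted p = 1.21e-04). At S3 it had 4.49, 3.70 and 3.83 TPM in flo8Δ, against 9.51, 8.38 and 7.49 TPM in WT (log2 fold change -1.13, adjusted p = 1.69e-05). The change of its strain difference from S1 to S3 was 0.94 on the log2 scale (SE 0.23, adjusted p = 0.0358), which was under the fold threshold and not called. PP7435_Chr4-1007 and PP7435_Chr4-1008 were also called at both stages, with log2 fold changes of -1.15 and -1.56 at S1 and -1.58 and -1.07 at S3. PP7435_Chr4-1009 and PP7435_Chr4-1010 were called at S3, with log2 fold changes of -2.20 and -1.22, and at S1 had -0.93 and -0.84, below the fold threshold. These 5 genes were all called at S3, and there all flo8Δ libraries were below all WT libraries. The share of all genes that separate in this way was not counted.

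Farther inward on chromosome 4, PP7435_Chr4-1001 had 2.39, 4.45 and 3.78 TPM in flo8Δ S3, against 17.9, 20.1 and 20.5 TPM in WT S3. Its log2 fold change was -2.52 (SE 0.21, adjusted p = 1.48e-06), the greatest fall of the list at S3, and -1.69 at S1. The stranded estimates held 54.9% of its reads. PP7435_Chr4-1004 had 19.2, 18.6 and 17.8 TPM in flo8Δ S3, against 41.8, 45.7 and 50.05 TPM in WT S3, and was called at that stage only (log2 fold change -1.36). Whether it differed between the stages was tested and it was not called. Next to PP7435_Chr4-1011 and outward of it, PP7435_Chr4-1012 had 8.65, 11.03 and 8.04 TPM in flo8Δ S3, against 2.97, 4.05 and 3.91 TPM in WT S3 (log2 fold change 1.27, adjusted p = 6.01e-05). For PP7435_Chr4-1012, 52.6% of reads were in the stranded estimates. PP7435_Chr4-1014 had 30.5, 27.6 and 39.3 TPM in flo8Δ S1, against 8.18, 9.99 and 20.7 TPM in WT S1, and was called at both stages (log2 fold changes 1.50 and 1.59). The FLO family tag between these genes, PP7435_Chr4-1013, had log2 fold changes of 0.22 and -0.16 at S1 and S3 and was not called.

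At the low-numbered ends fewer genes were called. PP7435_Chr1-0007, the most abundant of the list, had 7771, 7067 and 6763 TPM in flo8Δ S1, against 4263, 3109 and 3987 TPM in WT S1 (log2 fold change 1.03, SE 0.14, adjusted p = 0.00135). At S3 it had 6623, 7447 and 7949 TPM in flo8Δ, against 6983, 5390 and 3792 TPM in WT, and the strains overlapped. Without WT S1 replicate 2 or flo8Δ S1 replicate 1 its fold change at S1 was under the threshold, down to 0.94. PP7435_Chr1-0004 had 11.9, 14.1 and 13.2 TPM in flo8Δ S1, against 37.6, 35.9 and 51.8 TPM in WT S1 (log2 fold change -1.54, adjusted p = 4.36e-04). At S3, PP7435_Chr1-0014, PP7435_Chr2-0005, PP7435_Chr2-0009, PP7435_Chr3-0016 and PP7435_Chr4-0002 were lower in flo8Δ, by log2 fold changes between -2.45 for PP7435_Chr4-0002 and -1.07 for PP7435_Chr2-0009. PP7435_Chr3-0016 was called at S1 as well (log2 fold change -1.18, adjusted p = 0.0383), a call lost in 5 of the 6 fits that left out a library. The high-numbered end of chromosome 1 gave PP7435_Chr1-1570 alone, which was lower at S1 (log2 fold change -1.19).

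Growth rate was compared next, within WT. The 3 comparisons of WT stages share libraries, so their values are given side by side. At S3, 11 of 131 genes were called against S1 (8.4%, against 1.43% of all genes), 5 of them higher (1.11% of all genes) and 6 lower (0.32% of all genes). At S5 against S3, 7 of 131 were called (5.34%, against 2.39% of all genes), with 1 higher (0.0565% of all genes) and 6 lower (2.33% of all genes). At S5 against S1, the stages of equal growth rate, 6 of 131 were called (4.58%, against 0.395% of all genes), with 2 higher (0.0941% of all genes) and 4 lower (0.301% of all genes). The calls of S5 against S3 were the steadiest, as 6 of 7 were kept when any library was left out, with 3 of 11 for S3 against S1 and 0 of 6 for S5 against S1. That last count fell to 0 without WT S5 replicate 1, to 1 without WT S1 replicate 1 and to 3 without WT S5 replicate 2, and was 7 without WT S5 replicate 3.

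One set of genes, grouped here after their values were seen, was high in WT at slow growth and back down at S5. PP7435_Chr4-0002 had 278, 301 and 167 TPM in WT S1, 823, 803 and 784 TPM in S3 and 319, 304 and 269 TPM in S5. It was higher at S3 than at S1 (log2 fold change 1.77, SE 0.23, adjusted p = 0.00167) and lower at S5 than at S3 (log2 fold change -1.36, adjusted p = 5.00e-05). In flo8Δ it had 132, 125 and 113 TPM at S1 and 154, 151 and 153 TPM at S3, below every WT library of either stage. PP7435_Chr3-0016 and PP7435_Chr1-0014 had the same course in WT. PP7435_Chr3-0016 had 141, 189 and 62.9 TPM in WT S1, 281, 289.8 and 297 TPM in S3 and 84.4, 79.6 and 96.2 TPM in S5, and PP7435_Chr1-0014 had 263, 341 and 110.2 TPM, 476, 494 and 487 TPM, and 168, 149 and 220.5 TPM at these stages.

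In all 3 of these genes WT S1 replicate 3 was the lowest of its group, nearer to flo8Δ S1 than its own replicates were, and the calls of PP7435_Chr3-0016 and PP7435_Chr1-0014 at S3 against S1 were each lost in 5 of the 6 fits that left out a library. The changes of PP7435_Chr4-0002 and PP7435_Chr3-0016 lay in the reads outside the stranded estimates: at S5 against S3 the log2 fold changes were -1.87 and -2.05 in those reads and 0.10 and -0.15 in the estimates. PP7435_Chr4-1009 was lower at S5 than at S3 as well, with 19.0, 15.2 and 19.5 TPM in WT S5, against 45.6, 49.6 and 52.2 TPM in WT S3 (log2 fold change -1.39, SE 0.09, adjusted p = 2.51e-05). PP7435_Chr2-0005 had 1.31, 2.07 and 3.28 TPM in WT S5, against 6.87, 8.20 and 11.4 TPM in WT S3 (log2 fold change -1.95). For this gene 73.1% of reads were in the stranded estimates and the remaining reads gave a log2 fold change of 0.11.

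PP7435_Chr3-1219 was higher at slow growth in both strains, and in WT it came back down at S5. The flo8Δ strain was not sampled after a switch back, so there growth rate and time in culture cannot be told apart. It had 22.1, 30.4 and 16.6 TPM in flo8Δ S1 and 102, 89.5 and 98.6 TPM in flo8Δ S3, and 32.8, 25.3 and 40.7 TPM in WT S1, 74.2, 77.1 and 78.4 TPM in WT S3 and 33.5, 22.4 and 40.9 TPM in WT S5. No library of S3 overlapped with one of S1 or S5 in its strain. The log2 fold changes were 2.00 in flo8Δ S3 against S1 (adjusted p = 8.00e-06), 1.27 in WT S3 against S1 (adjusted p = 5.59e-04) and -1.22 in WT S5 against S3 (adjusted p = 8.71e-04), and each call was kept without any 1 library.

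**Figure D4:**
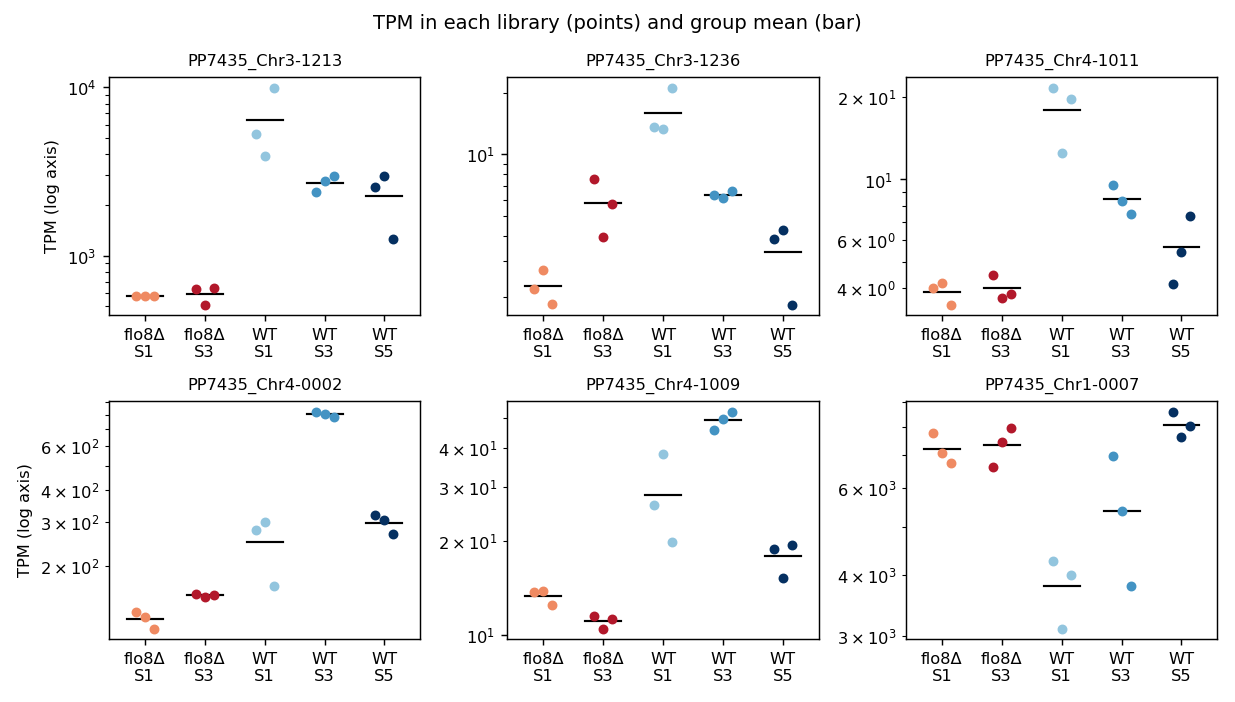
TPM of 6 chromosome-end genes in each library (points, log axis) with the group mean (bar), for flo8Δ S1 and S3 and WT S1, S3 and S5. PP7435_Chr3-1213, PP7435_Chr3-1236 and PP7435_Chr4-1011 are highest in WT S1, PP7435_Chr4-0002 and PP7435_Chr4-1009 are highest in WT S3, and PP7435_Chr1-0007 is lowest in WT S1.

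Other genes were lower at S3 than at S1 and did not come back at S5, although the growth rate did. PP7435_Chr4-1011 had 21.6, 12.5 and 19.7 TPM in WT S1, 9.51, 8.38 and 7.49 TPM in S3 and 4.16, 5.45 and 7.36 TPM in S5, with log2 fold changes against S1 of -1.02 at S3 and -1.54 at S5. PP7435_Chr4-1012 had 7.31, 6.82 and 9.59 TPM in WT S1, 2.97, 4.05 and 3.91 TPM in S3 and 2.24, 2.22 and 3.80 TPM in S5, with log2 fold changes against S1 of -1.07 and -1.41. PP7435_Chr3-1234 had 33.7, 28.6 and 40.5 TPM in WT S1, 12.9, 16.4 and 17.7 TPM in S3 and 13.0, 11.6 and 16.3 TPM in S5. All 3 were called in both comparisons with S1 and in none between S5 and S3. PP7435_Chr3-1213 and PP7435_Chr3-1232 were called lower at S3 than at S1 (log2 fold changes -1.10 and -1.09). At S5 PP7435_Chr3-1213 had 2568, 2960 and 1247 TPM, below all WT S1 libraries, but its adjusted p was 0.104.

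PP7435_Chr3-1236, next to the FLO family tag PP7435_Chr3-1237, had 13.5, 13.2 and 21.1 TPM in WT S1, 6.32, 6.11 and 6.60 TPM in S3 and 3.84, 4.28 and 1.84 TPM in S5. Against S1 its log2 fold change was -1.26 (adjusted p = 0.00162) at S3 and -2.17 (adjusted p = 0.0246) at S5. In flo8Δ it moved in the opposite direction, with 7.57, 3.96 and 5.73 TPM at S3, against 2.20, 2.72 and 1.85 TPM at S1 (log2 fold change 1.17, adjusted p = 0.00407). It was lower in flo8Δ than in WT at S1 (log2 fold change -2.66, SE 0.22, adjusted p = 1.21e-04) and overlapped with WT at S3. PP7435_Chr3-1237 had 3.80, 3.29 and 2.31 TPM in flo8Δ S1, against 27.9, 34.2 and 46.0 TPM in WT S1 (log2 fold change -3.38, adjusted p = 2.8e-05), and 7.22, 6.49 and 9.97 TPM in flo8Δ S3. For PP7435_Chr3-1236 the fall in flo8Δ at S1 lay in the reads outside the stranded estimates, with a log2 fold change of 0.69 in the estimates, and both tags share reads with other transcripts.

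PP7435_Chr4-1018 increased at each later stage. It had 0.934, 0.391 and 0.483 TPM in WT S1, 1.43, 6.06 and 8.68 TPM in S3 and 13.2, 9.75 and 50.1 TPM in S5, at 4 to 859 reads per library. The log2 fold change was 2.81 (SE 0.63, adjusted p = 0.0122) at S3 against S1, 2.19 (SE 0.72, adjusted p = 0.0414) at S5 against S3 and 5.02 (SE 0.55, adjusted p = 0.0114) at S5 against S1, the greatest rise of the list in all 3. In flo8Δ it had 4.38, 5.21 and 4.37 TPM at S3, against 0.658, 0.713 and 0.892 TPM at S1 (log2 fold change 2.43, adjusted p = 2.87e-05). The strains were not called different at either stage. The call was lost at S5 against S1 without WT S5 replicate 1, at S3 against S1 without WT S3 replicate 2, and at S5 against S3 in 3 of 6 fits.

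FLO300 (PP7435_Chr4-1020), the last tag of that numbering, had 9.84, 6.17 and 7.997 TPM in WT S1, 11.8, 42.8 and 72.2 TPM in S3 and 84.9, 58.2 and 340.0 TPM in S5, which is the same order of libraries within S3 and within S5 as in PP7435_Chr4-1018. Its log2 fold change was 4.03 at S5 against S1 (adjusted p = 0.0203). PP7435_Chr4-1019, the tag between them, had 33.0, 23.0 and 30.9 TPM in WT S1, 17.9, 44.2 and 64.5 TPM in S3 and 66.6, 42.4 and 169 TPM in S5. Its log2 fold change at S5 against S1 was 1.57, with an adjusted p of 0.0655 in limma, and 0.0382 when replicate numbers entered the fit as blocks. All 3 neighbours were highest in WT S5 replicate 3. Stranded estimates were not whole numbers for FLO300 in 15 libraries, for PP7435_Chr4-1018 in 11 and for PP7435_Chr4-1019 in 1. Which transcripts share these reads is not known, so the 3 levels are not shown to be separate measurements. In flo8Δ, FLO300 was higher at S3 than at S1 (log2 fold change 1.33), while PP7435_Chr4-1019 had a log2 fold change of -0.53.

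**Figure D5:**
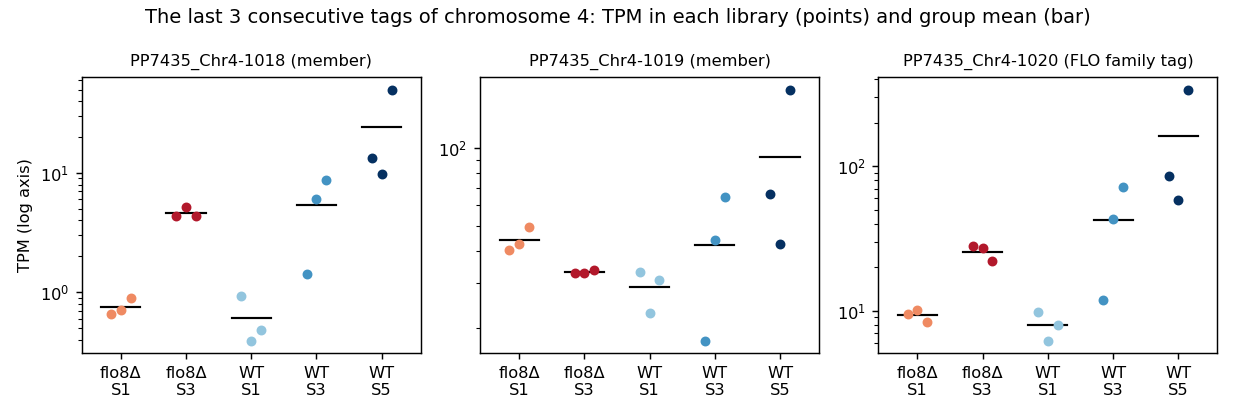
TPM of PP7435_Chr4-1018, PP7435_Chr4-1019 and the FLO family tag PP7435_Chr4-1020 in each library (points, log axis) with the group mean (bar), for flo8Δ S1 and S3 and WT S1, S3 and S5. WT S5 replicate 3 is the highest point in all 3 panels, and WT S3 replicate 1 lies below its replicates in each.

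PP7435_Chr1-0007 was the other gene higher at S5 than at S1 in WT, with 8584, 7626 and 8042 TPM in S5, against 4263, 3109 and 3987 TPM in S1 (log2 fold change 1.23, SE 0.23, adjusted p = 0.0326). At S3 it had 6983, 5390 and 3792 TPM, with a mean between those of the other stages and the widest spread. The call was lost in 5 of the 6 fits that left out a library. In flo8Δ its level was 6623 to 7949 TPM at S3 and 6763 to 7771 TPM at S1.

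In flo8Δ, 7 of 131 genes were called at S3 against S1 (5.34%, against 0.546% of all genes), with 3 higher (0.32% of all genes) and 4 lower (0.226% of all genes). The higher ones were PP7435_Chr4-1018, PP7435_Chr3-1219 and PP7435_Chr3-1236. PP7435_Chr3-1222 had the greatest fall, with 1.32, 1.61 and 2.16 TPM in flo8Δ S3, against 6.07, 3.95 and 7.01 TPM in flo8Δ S1 (log2 fold change -1.80, SE 0.25, adjusted p = 2.99e-04). PP7435_Chr1-0003 (log2 fold change -1.50), PP7435_Chr3-1231 (-1.10) and PP7435_Chr3-1233 (-1.25) were lower too, with 8 to 50 reads per library for PP7435_Chr3-1233. All 4 stood under 20 TPM in every library.

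Whether the difference between the strains changed from S1 to S3 was tested directly. It did for 3 of the 131 genes tested (2.29%, against 0.546% of all genes), 1 with a positive change (0.188% of all genes) and 2 with a negative one (0.357% of all genes). PP7435_Chr3-1236 had a change of 2.42 on the log2 scale (SE 0.32, adjusted p = 0.00112). PP7435_Chr4-0002 had -1.58 (SE 0.25, adjusted p = 0.00589) and PP7435_Chr4-1009 had -1.27 (SE 0.27, adjusted p = 0.0200), which means that both were farther below WT at S3 than at S1. The FLO family tag PP7435_Chr3-1237 changed by 2.63, close to its neighbour PP7435_Chr3-1236. The other genes that were called at 1 stage only were not called in this test.

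The 7 FLO family tags at these ends were FLO100, FLO200 (PP7435_Chr3-1226), FLO300, PP7435_Chr2-0004, PP7435_Chr3-1237, PP7435_Chr4-1013 and PP7435_Chr3-1228, the last of which the selection rule set aside although the FLO list of the study does not name it. The median level of the 7 was 13.4 TPM, which is the level of PP7435_Chr3-1228 itself. Of the 6 that passed the filter, PP7435_Chr3-1228 among them, 1 was lower in flo8Δ at S1 and none was called at S3. The genes with the next tags inward were called in 2.48% of cases for flo8Δ against WT at S1, 4.35% at S3 and 1.86% for WT S3 against S1, with 3.19%, 4.22% and 1.43% of all genes in the same comparisons.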

How the data were processed

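RNA-Seq was done on 15 libraries, 3 per group. The authors trimmed reads with Trim Galore 0.4.2, estimated transcript counts with kallisto 0.43.1 and deposited, for each comparison, normalised counts from DESeq2 1.14.1, a signal scaled within 6 libraries. Per library they also deposited expected counts (kallisto estimated counts with a strand setting) and lengths per transcript. How the tables treated strand is not given in the sources used here. The deposited normalised counts were whole multiples of 1 step per library and gene length (100% within 0.01). This gave the whole counts that are called reads here and were used for depth, TPM and count models. The normalised counts come from kallisto estimates, so these whole counts can be rounded estimates where a read fits more than 1 transcript. Each comparison was fitted to log2(normalised count + 1) with limma 3.58.1 in R 4.3.3, for genes with at least 10 normalised counts in 3 libraries. The interaction was fitted over 12 libraries. Calls needed both an adjusted p below 0.05 and a log2 fold change past 1 in size. Alternatives used edgeR 4.0.16, DESeq2 1.42.0, other filters and pseudocounts, and each library left out.

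The genes, lists and tests were chosen with earlier results of these data known. Genes named are those called in any fit, the 2 highest of each end, those with the greatest rise or fall in each fit, and others described after their values were seen. Replicates are biological as the study labels them, but no source says that a replicate number marks 1 chemostat. Same-numbered WT libraries of S1 and S5 deviated together (r = 0.136, 0.201 and 0.192, across genes). This meets the rule for pairing, r over 0.1 for every replicate number, and no other pair of groups met it. Between the strains, which do not share a chemostat, r was -0.034, 0.324 and 0.114 for flo8Δ S3 and WT S1. Values like those of WT S1 and S5 therefore do not show by themselves that libraries share a culture. For WT S3 and S5, r was 0.430, -0.101 and 0.539, so replicates 1 and 3 deviated together more strongly and replicate 2 did not. No 2 libraries of the same group agreed within sampling noise, and pairs from different groups were not compared in this way.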

Additional observations from a re-analysis of the deposited data

Results flagged for a closer look

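Of the chromosome-end genes, 3 showed a difference between the strains at S3 that was not the one at S1, by a test of that change itself (limma, 12 libraries). PP7435_Chr3-1236 had a change of 2.42 on the log2 scale, PP7435_Chr4-0002 had -1.58 and PP7435_Chr4-1009 had -1.27. The first 2 were called in each of the 12 fits that left out a library and PP7435_Chr4-1009 in 9 of them. In the stranded estimates alone the change was 0.41 for PP7435_Chr3-1236 and 0.13 for PP7435_Chr4-0002, and -1.73 for PP7435_Chr4-1009. Groups of 3 are too small for a test of single outlying libraries.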

How the results depend on the processing

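Counts of called chromosome-end genes moved by over 1.5 times in these cases. For the change of the strain difference from S1 to S3 (3 genes) the count was 5 with edgeR TMM, 7 with DESeq2 and 0 with edgeR on the estimated counts, and 2 to 11 when 1 library was left out, 11 being without WT S1 replicate 2. For WT S3 against S1 (11 genes) leaving out 1 library gave 5 to 13, the lowest without WT S1 replicate 3, and for WT S5 against S1 (6 genes) 0 to 7. The median of 43.6 TPM in WT S1 stayed within the spread of its libraries under every alternative. With the replicate number as a block, counts were 18, 18, 12, 8, 7, 7 and 4 in the order of the comparisons in the text (flo8Δ against WT at S1 and S3, WT S3 against S1, S5 against S3, S5 against S1, flo8Δ S3 against S1, and the change between stages), and all 69 calls were kept. Of the 69, 44 were kept with any library left out. On the estimated counts alone, log2 fold changes turned round for flo8Δ against WT at S1 in PP7435_Chr3-0016 (0.13), PP7435_Chr3-1215 (0.068) and PP7435_Chr3-1236 (0.69), at S3 in PP7435_Chr3-0016 (0.25) and PP7435_Chr4-0002 (0.15), for WT S3 against S1 in PP7435_Chr3-1236 (0.91) and PP7435_Chr4-0002 (-0.037), for S5 against S3 in PP7435_Chr4-0002 (0.10), for S5 against S1 in PP7435_Chr1-0007 (-0.30) and PP7435_Chr3-1236 (0.54), and for the change between stages in PP7435_Chr4-0002 (0.13). On the reads less those estimates they turned round for PP7435_Chr3-1214 (flo8Δ against WT at S1, 0.34) and PP7435_Chr2-0005 (WT S5 against S3, 0.11). The cause was not tested. Low counts limit the genes under 10 TPM most, and with 3 libraries a group each library carries much of a call.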
